A study of Homo sapiens with 4 samples.

Results

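The SREBP pathway was described through 33 genes, 21 of sterol synthesis and its control and 12 of fatty acid synthesis and its control, out of the 58884 genes counted in each library. The genes were chosen by name from the known pathway, with earlier results of these data known. They were matched by symbol to the Ensembl genes of the count tables, and all 33 were found. RNA sequencing was done on HCT116, a human colorectal carcinoma cell line, in 4 libraries. In 2 libraries RALY, a nuclear protein that binds RNA, had been knocked down by lentiviral short hairpin RNA for 72 h, and the other 2 were control libraries titled wild type. The treatment text names a nonsilencing hairpin virus, while other labels call the control cells untreated, so whether the controls carried a virus is not settled by the labels. Cells of both groups grew in medium with 10% fetal bovine serum. The labels give no number of hairpins. Whether libraries of the same group were grown as separate cultures is also not stated, so each p-value reflects only how far these libraries vary, possibly for technical reasons.

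The SREBP transcription factors are made as precursors in the membrane of the endoplasmic reticulum, where SCAP escorts them and INSIG proteins hold them back while sterols are plentiful. When sterols run short, SCAP carries them to the Golgi, the proteases encoded by MBTPS1 and MBTPS2 cut them, and the released part enters the nucleus and raises transcription of its target genes. SREBF2 encodes the factor that acts mainly on sterol synthesis, and SREBF1 the factor that acts mainly on fatty acid synthesis. Colorectal carcinoma cells make part of their own lipid for membranes.

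Library totals ran from 14762755 to 16493967 counts in the knockdown and from 13360007 to 16847520 counts in the controls. Levels below are CPM, counts of a gene scaled to a common library size after TMM adjustment of the totals. Differences are log2 fold changes (knockdown over control), each with a standard error (SE). RALY itself had 634 and 522 counts in the knockdown libraries, against 1903 and 2132 in the controls (log2 fold change -1.84, SE 0.127, edgeR adjusted p = 6.59e-06). Of 8 colon epithelial markers, 5 had a mean of at least 1 CPM, among them EPCAM, KRT8 and CDX2, while VIL1 stayed below that and CDX1 and CDH17 were near 0. The summed epithelial markers had 509 and 545 CPM in the knockdown and 566 and 494 CPM in the controls. Summed markers of leukocytes, fibroblasts, hepatocytes and adipocytes, 4 genes each, lay between 1.56 and 21.6 CPM in the knockdown and between 1.29 and 16.0 CPM in the controls. Over all 19686 genes tested, 13.1% were lower and 12.5% higher in the knockdown (edgeR quasi-likelihood test, Benjamini-Hochberg adjusted p under 0.05). In counting, fewer cells that use a gene and less RNA per cell cannot be told apart.

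In the knockdown libraries SREBF2 was 1.90-fold and SREBF1 1.92-fold lower, and 5 enzymes fell with them. No member rose, while 12.5% of all genes tested did. In the sterol branch 5 of 21 genes fell (23.8%) and in the fatty acid branch 2 of 12 fell (16.7%), beside the 13.1% of all genes tested. Among the 14280 protein-coding genes tested the share was 15.5%, close to that of the fatty acid branch. As a share of 2 counts a base of transcript, median counts were 22.4% in the sterol and 23.3% in the fatty acid branch. They were 8.68% over all genes tested and 12.3% over protein-coding genes, and no set of like count was compared. The 5 sterol genes were SREBF2, MVD, PMVK, HSD17B7 and TM7SF2, and the 2 fatty acid genes were SREBF1 and ACSS2. All 33 members passed the filter on low counts. The 26 members without a call had log2 fold changes between -0.41 and 0.12, and 4 of them, all in the sterol branch, had an unadjusted p under 0.05.

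**Figure D1:**
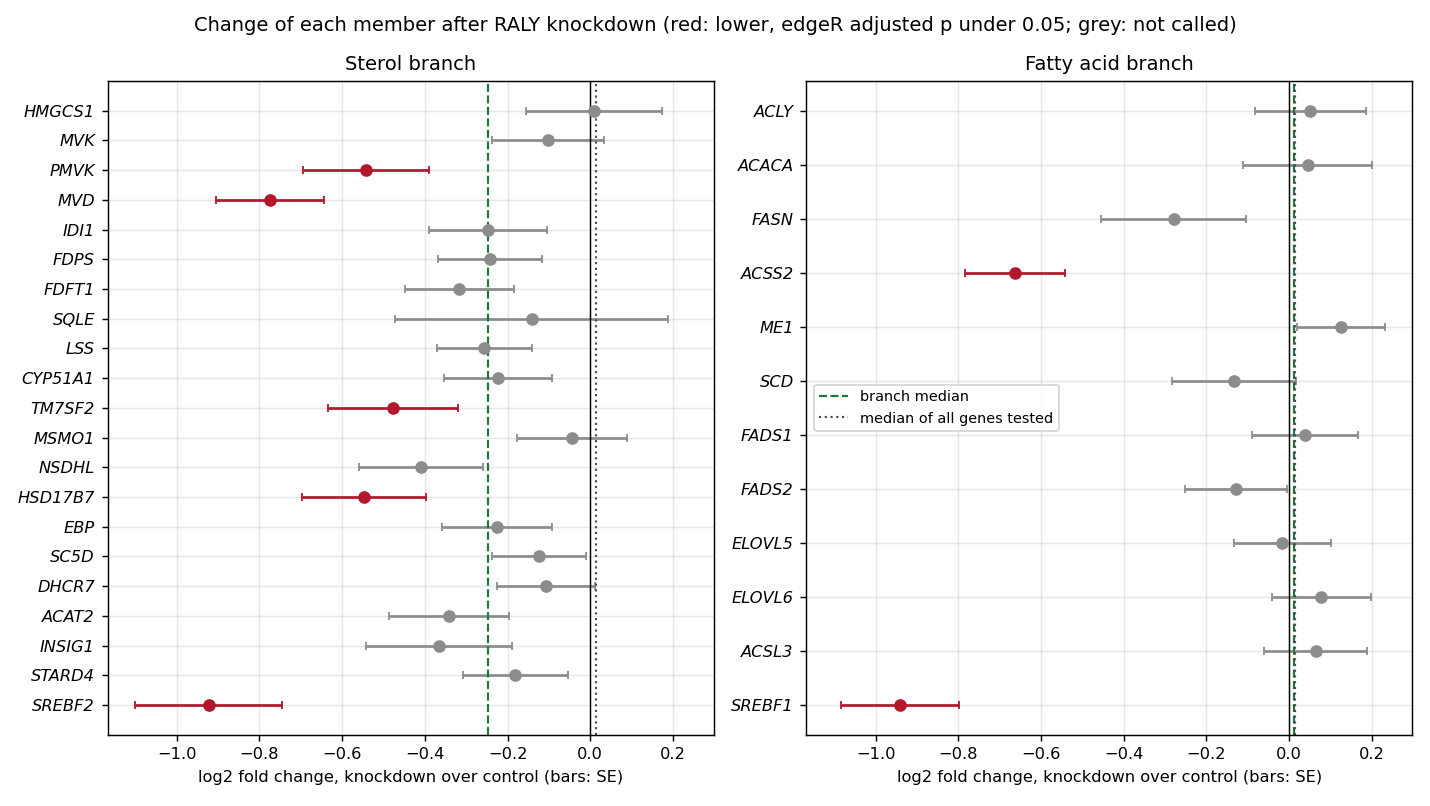
Log2 fold change of each member, knockdown over control (horizontal axis, bars show SE, n = 2 libraries a group), by branch. Red points are the 7 genes called as lower at an edgeR adjusted p under 0.05, grey points were not called, the dashed line is the branch median (-0.25 and 0.01) and the dotted line the median of all genes tested (0.01).

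SREBF2, which encodes the sterol-directed factor, lies on chromosome 22 at 41833079 to 41907307 of GRCh38. It had 139 and 87.6 CPM in the knockdown libraries, against 229 and 201 CPM in the controls. Both knockdown libraries lay below both controls, and the 2 knockdown libraries differed more from each other than the controls did. The mean was 113 ± 36.2 CPM in the knockdown and 215 ± 20.2 CPM in the controls (SD, n = 2 each), and the fitted log2 fold change was -0.92 (SE 0.178, edgeR adjusted p = 0.00303). Without knockdown replicate 1 the value was -1.31 and without knockdown replicate 2 it was -0.63. The call was lost without control replicate 1 (edgeR adjusted p = 0.077) or control replicate 2 (edgeR adjusted p = 0.0602), where over all genes the lower calls also dropped, to 3.17% and 2.49%.

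SREBF1, the gene of the fatty acid-directed factor, lies on chromosome 17 at 17810399 to 17837002. Its level was 114 and 83.4 CPM in the knockdown libraries and 194 and 185 CPM in the controls. The groups were well apart here, and knockdown replicate 2 was again the lowest library. The means were 98.7 ± 21.5 CPM in the knockdown and 189.5 ± 6.90 CPM in the controls (SD, n = 2 each), or 52.1% of the control level by the fitted log2 fold change of -0.94 (SE 0.142, edgeR adjusted p = 0.000759). SREBF1 kept its call with each library left out, with log2 fold changes between -1.20 and -0.74. Per kilobase of transcript the 2 factors had similar levels, 21.6 CPM per kb for SREBF2 and 20.1 for SREBF1 in the knockdown, against 41.0 and 38.7 CPM per kb in the controls. SREBF1 shares 6.92% of its exon bases with RAI1 on the opposite strand. RAI1 had 1382 and 1068 counts in the knockdown libraries and 1459 and 1813 counts in the controls. SREBF2 shares 3.71% of its exon bases with the antisense gene SREBF2-AS1, which had 1 to 3 counts a library.

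The stretches before the start of both factor genes are shown because both fell and because SREBP factors are known to act on SREBF2 itself. Those of MVD and HSD17B7, 2 of the 4 called enzymes of the sterol branch, stand beside them. They are RefSeq sequences of GRCh38.p14, the 250 bases before the start, 5′ to 3′ on the strand of the gene. Capitals mark the classical sterol regulatory element, spelled out by the run of 10 capitals in SREBF2, and the NF-Y box CCAAT, searched on both strands together with the E-box CACGTG, which occurred in none of the 4. SREBF2 is at chr22:41832855-41833104 on the plus strand, SREBF1 at chr17:17836987-17837236 on the minus strand, MVD at chr16:88663092-88663341 on the minus strand and HSD17B7 at chr1:162790452-162790701 on the plus strand.
SREBF2: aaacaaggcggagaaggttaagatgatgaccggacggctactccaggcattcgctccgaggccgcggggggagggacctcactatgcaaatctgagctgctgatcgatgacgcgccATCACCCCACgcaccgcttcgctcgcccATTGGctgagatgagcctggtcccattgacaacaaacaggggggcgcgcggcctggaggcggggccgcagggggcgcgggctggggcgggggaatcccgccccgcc
SREBF1: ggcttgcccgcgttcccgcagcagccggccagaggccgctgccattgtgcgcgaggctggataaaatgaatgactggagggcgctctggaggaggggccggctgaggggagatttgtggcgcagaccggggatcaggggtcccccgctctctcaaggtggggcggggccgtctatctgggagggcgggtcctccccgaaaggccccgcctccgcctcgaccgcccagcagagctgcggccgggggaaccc
MVD: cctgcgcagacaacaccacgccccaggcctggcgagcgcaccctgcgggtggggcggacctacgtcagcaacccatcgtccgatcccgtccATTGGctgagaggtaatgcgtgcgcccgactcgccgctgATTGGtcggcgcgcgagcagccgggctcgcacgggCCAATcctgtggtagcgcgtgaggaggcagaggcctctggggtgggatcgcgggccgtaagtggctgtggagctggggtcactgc
HSD17B7: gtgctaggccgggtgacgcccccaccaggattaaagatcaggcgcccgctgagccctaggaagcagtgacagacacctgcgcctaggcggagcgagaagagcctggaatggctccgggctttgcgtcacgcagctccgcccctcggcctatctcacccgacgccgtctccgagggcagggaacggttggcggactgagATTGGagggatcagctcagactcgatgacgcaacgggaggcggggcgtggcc

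In SREBF2 the sterol regulatory element lies at bases 117 to 126 of the printed stretch, and an NF-Y box on the other strand follows at bases 145 to 149. The MVD stretch holds 3 NF-Y boxes and that of HSD17B7 holds 1, while the SREBF1 stretch holds none of the motifs in these letters. No other stretch of SREBF1 was searched. Of the called sterol enzymes not printed, PMVK holds none of the motifs in its stretch either and TM7SF2 holds 1 NF-Y box. The called fatty acid enzyme ACSS2 holds 1 NF-Y box in 1 entry and none in the other. Some members without a call hold more NF-Y boxes than the called genes, 5 each in MVK and NSDHL and 4 in MSMO1. Of the other members without a call, CYP51A1, ELOVL6, ME1, FADS1 and FADS2 hold no NF-Y box. Among all 35116 RefSeq promoter stretches of this length, 12 hold the sterol element in exactly these letters (0.0342%), and that of SREBF2 is 1 of them. These letters occurred in 1 of 23 sterol branch stretches (4.35%) and in 0 of 16 fatty acid branch stretches. Other spellings of the element were not searched. Promoters of 29 members were in the table, some with more than 1 entry. Those of FDFT1, SQLE, ACAT2 and FASN were not. The NF-Y box occurred in 18 of 23 sterol branch stretches (78.3%) and in 8 of 16 fatty acid branch stretches (50%), beside 32% of all promoter stretches. The E-box occurred in 3 of the 23 and 1 of the 16, beside 6.34% of all. Several of these entries belong to 1 gene and overlap, and a match of letters is a description, not a site of binding.

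Introns of the 2 factor genes carry the microRNA genes MIR33A, in SREBF2, and MIR33B, in SREBF1. Their products are known to act on transcripts of sterol efflux and fatty acid oxidation, and their mature sequences are shown because the host transcripts fell. Capitals mark the seed, bases 2 to 8, which the 2 microRNAs share. They lie at chr22:41900949-41900969 on the plus strand and chr17:17813897-17813916 on the minus strand of GRCh38.p14, per RefSeq.
hsa-miR-33a-5p: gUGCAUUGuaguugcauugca
hsa-miR-33b-5p: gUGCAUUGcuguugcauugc

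MIR33A had no count in any library. MIR33B had 4 and 3 counts in the knockdown libraries and 2 and 3 in the controls, at the floor of 3 counts. MIR6777, a further microRNA gene in an SREBF1 intron, had 10 and 7 counts in the knockdown and 6 and 14 in the controls. These counts are of reads on the gene and give no level of the mature microRNA.

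The early enzymes of the sterol branch turn acetyl-CoA units into mevalonate and then farnesyl diphosphate. MVD, the decarboxylase that makes isopentenyl diphosphate, had 74.1 and 71.6 CPM in the knockdown libraries and 140.4 and 109 CPM in the controls. The knockdown libraries were close together and both lay under the lower control. Its log2 fold change was -0.77 (SE 0.131, edgeR adjusted p = 0.00137), which leaves 58.5% of the control level, and the call held with each library left out, at -0.96 to -0.62. Under an assumed ceiling of 2 counts a base of transcript, set for 1 alternative, MVD counts were at 41.6% of it, and with counts corrected on that assumption the value was -1.02.

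PMVK, the phosphomevalonate kinase that works 1 step before MVD, had 25.1 and 22.5 CPM in the knockdown libraries and 33.3 and 36.0 CPM in the controls. The groups did not overlap, with a log2 fold change of -0.54 (SE 0.153, edgeR adjusted p = 0.0211). With either control left out it was no longer called (edgeR adjusted p = 0.122 without replicate 1 and 0.206 without replicate 2). The kinase before it, MVK, had 43.0 and 42.8 CPM in the knockdown and 49.6 and 42.5 CPM in the controls (log2 fold change -0.10, edgeR adjusted p = 0.626).

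HMGCS1, the synthase that makes HMG-CoA at the entry of the branch, had 156 and 141 CPM in the knockdown libraries and 178 and 118 CPM in the controls. Here both knockdown libraries lay between the 2 controls, and the log2 fold change was 0.01 (edgeR adjusted p = 0.977). It shares 37.7% of its exon bases with a noncoding gene on the opposite strand that had 1 or 2 counts a library. IDI1, the isomerase, and FDPS, which makes farnesyl diphosphate, had log2 fold changes of -0.25 and -0.24 (edgeR adjusted p = 0.227 and 0.177). FDPS was at 101 and 90.4 CPM in the knockdown libraries, against 124.5 and 102 CPM in the controls, so that the groups were separated by little. ACAT2, the cytosolic thiolase that feeds the branch, had 59.8 and 53.7 CPM in the knockdown, against 82.2 and 61.9 CPM in the controls (log2 fold change -0.34, edgeR adjusted p = 0.102). It shares 52.3% of its exon bases with neighbours on the opposite strand, and its counts are uncertain.

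The steps from farnesyl diphosphate to lanosterol gave no call. FDFT1, squalene synthase, had 112 and 107 CPM in the knockdown libraries and 155 and 119 CPM in the controls (log2 fold change -0.32, edgeR adjusted p = 0.0988). LSS, the cyclase that makes lanosterol, had 130.5 and 126 CPM in the knockdown libraries and 163 and 144 CPM in the controls (log2 fold change -0.26, edgeR adjusted p = 0.119). In both genes the groups did not overlap, but control replicate 1 stood above control replicate 2. SQLE, the epoxidase between them and a rate-limiting step of the branch, was set apart by its count, with 32 and 38 counts in the knockdown and 30 and 47 in the controls. Per kilobase it had 0.768 CPM per kb in the knockdown and 0.843 in the controls, while FDFT1 had 54.0 and 67.3 and LSS had 26.3 and 31.4 CPM per kb in knockdown and controls. SQLE was the lowest of the 33 members on this scale, at a depth where its log2 fold change of -0.14 had an SE of 0.331. Whether so low a count reflects the amount of transcript or the way reads were counted cannot be told from the tables, so its level and rank are uncertain.

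Among the enzymes that turn lanosterol into cholesterol, 2 of 8 fell (25%), beside 13.1% of all genes tested. HSD17B7, the sterol 3-ketoreductase of the demethylation complex, had 23.5 and 23.7 CPM in the knockdown libraries, against 36.1 and 32.97 CPM in the controls. The knockdown libraries were nearly equal and the groups did not overlap (log2 fold change -0.55, SE 0.15, edgeR adjusted p = 0.0186). It too was no longer called with either control left out (edgeR adjusted p = 0.186 without replicate 1 and 0.12 without replicate 2). Its pseudogene HSD17B7P2 had 5.43 and 5.11 CPM in the knockdown and 7.28 and 8.16 CPM in the controls, and reads may be split between them.

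TM7SF2, a sterol C14 reductase, had 25.1 and 32.3 CPM in the knockdown libraries and 41.5 and 38.4 CPM in the controls. The groups did not overlap, and knockdown replicate 1 was the lowest library (log2 fold change -0.48, SE 0.157, edgeR adjusted p = 0.042). It was the weakest call of the 7, lost with plain library totals (edgeR adjusted p = 0.0541), without knockdown replicate 1 (0.131) and without control replicate 1 or 2 (0.262 and 0.184). LBR, a gene of the further pathway lists that catalyses the same step, had 176 and 186 CPM in the knockdown libraries and 171 and 151 CPM in the controls (log2 fold change 0.17, edgeR adjusted p = 0.332). The difference between the changes of TM7SF2 and LBR was not tested.

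NSDHL, the decarboxylating dehydrogenase that works with HSD17B7, had 40.2 and 37.2 CPM in the knockdown libraries and 58.3 and 44.8 CPM in the controls. It came nearest to a call among the members without one, with a log2 fold change of -0.41 (SE 0.15, edgeR adjusted p = 0.0627). CYP51A1, MSMO1, EBP, SC5D and DHCR7 had log2 fold changes between -0.23 and -0.04. The demethylase gene CYP51A1 shares 84.5% of its exon bases with other genes, chiefly a protein-coding gene on the same strand, and EBP shares 36.4% of them, so counts of both are uncertain. MSMO1, the C4-methyl oxidase, had 81.1 and 84.7 CPM in the knockdown, against 96.6 and 74.7 CPM in the controls, so the knockdown libraries again lay between the controls.

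INSIG1, the sterol-sensitive retention protein and itself an SREBP target, had 61.2 and 57.2 CPM in the knockdown libraries. Its controls had 93.8 and 59.2 CPM, so control replicate 2 fell between the knockdown libraries and only control replicate 1 was high. The log2 fold change was -0.37 (SE 0.176, edgeR adjusted p = 0.148), -0.04 without control replicate 1 and -0.68 without control replicate 2. STARD4, a carrier of cholesterol between membranes, had 114 and 111 CPM in the knockdown libraries and 143 and 113 CPM in the controls (log2 fold change -0.18, edgeR adjusted p = 0.327). It showed the same arrangement of libraries.

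**Figure D2:**
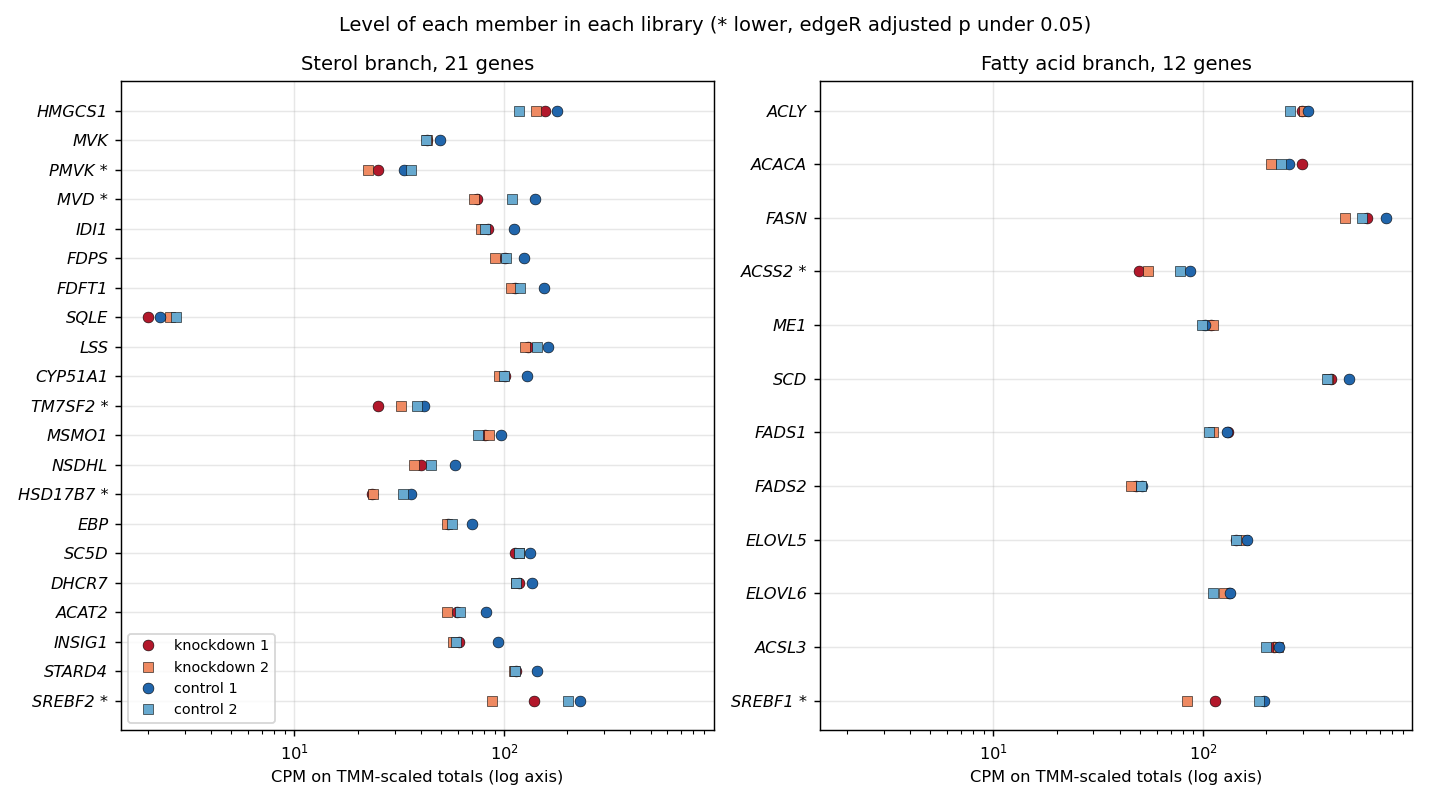
Level of each member in each library, in CPM on a log axis, for the sterol branch (left) and the fatty acid branch (right). Red symbols are the 2 knockdown libraries and blue symbols the 2 controls, and an asterisk marks the 7 genes called as lower. SQLE lies far to the left at about 2 CPM, and dark blue control replicate 1 is the highest library for most sterol genes.

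A high control replicate 1 was common in both branches. Control replicate 1 was above control replicate 2 in 19 of 21 sterol genes (90.5%) and in all 12 fatty acid genes, beside 49.5% of all genes tested. The median log2 ratio of control replicate 1 over control replicate 2 was 0.31 in the sterol branch and 0.19 in the fatty acid branch, while it was close to 0 over all genes tested. This spread between the 2 controls is as large as the median log2 fold change of the sterol branch between knockdown and control, which was -0.25. Between knockdown replicates 1 and 2 the median log2 ratio was 0.05 in the sterol branch and 0.06 in the fatty acid branch. Both knockdown libraries lay below control replicate 1 in 20 of 21 sterol genes, but below control replicate 2 in 13 of 21, beside 40.9% and 38.5% of all genes tested. Groups did not overlap, with the knockdown lower, in 12 of 21 sterol genes and 3 of 12 fatty acid genes, beside 31.3% of all genes tested. The reverse, with the knockdown higher, held in none of the sterol genes and in 1 fatty acid gene, beside 32.3% of all.

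Without control replicate 1 the median log2 fold change of the sterol branch was -0.13, with 1 gene called as lower, MVD. Without control replicate 2 it was -0.41, with MVD and INSIG1 called. In both fits only the knockdown pair gives the spread, the lone control being assumed to vary alike, and over all genes 3.17% and 2.49% were called as lower. Without knockdown replicate 1 the sterol median was -0.32 and 9 genes were called as lower, beside 16.4% of all genes, and without knockdown replicate 2 it was -0.24 with 5 genes, beside 13%. With no filter on low counts 9 sterol genes were also called as lower, beside 8.87% of the 34955 genes tested without it. The filter had left 19686 genes. No member was called as higher in these fits, nor with DESeq2. Over all genes 14.3% were higher without knockdown replicate 1, 12.8% without knockdown replicate 2, 1.62% without control replicate 1, 2.33% without control replicate 2, 8.11% with no filter and 9.11% with DESeq2. The 4 sterol members that share over 20% of their exon bases were not among the calls, and the median of the other 17 was -0.26.

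**Figure D3:**
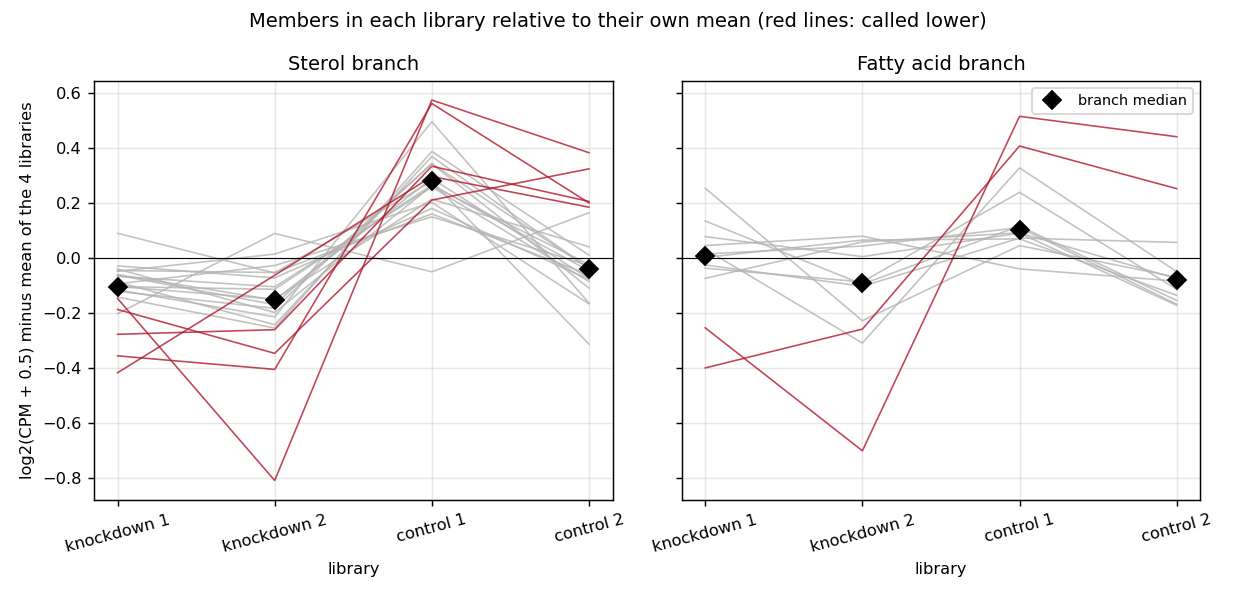
Log2(CPM + 0.5) of each member minus its mean over the 4 libraries (vertical axis), by library, with 1 line a gene and red lines for called genes. Diamonds are branch medians, which in the sterol branch are -0.10 and -0.15 in the knockdown libraries, 0.28 in control replicate 1 and -0.04 in control replicate 2.

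In the fatty acid branch the synthase, the citrate lyase and the first carboxylase gave no call. FASN, fatty acid synthase, had 605 and 477 CPM in the knockdown libraries and 742 and 571 CPM in the controls (log2 fold change -0.28, SE 0.175, edgeR adjusted p = 0.266). Knockdown replicate 1 lay between the controls, and without it FASN was called at -0.48 (edgeR adjusted p = 0.0308). ACLY, which splits citrate into acetyl-CoA, had 296 and 302 CPM in the knockdown, against 316 and 261 CPM in the controls (log2 fold change 0.05, edgeR adjusted p = 0.821). ACACA, the carboxylase that makes malonyl-CoA, had 296 and 212 CPM in the knockdown and 256 and 236 CPM in the controls (log2 fold change 0.04, edgeR adjusted p = 0.87). Here the knockdown libraries enclosed both controls.

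ACSS2, the cytosolic synthetase that makes acetyl-CoA from acetate, was the enzyme of this branch that fell. It had 49.3 and 54.4 CPM in the knockdown libraries and 86.6 and 77.7 CPM in the controls, with no overlap. The means were 51.8 ± 3.62 CPM in the knockdown and 82.1 ± 6.27 CPM in the controls (SD, n = 2 each), a log2 fold change of -0.66 (SE 0.121, edgeR adjusted p = 0.0022). The call was lost without control replicate 1 (edgeR adjusted p = 0.0624). ME1, malic enzyme, a source of NADPH, had 109 and 111 CPM in the knockdown libraries and 102 and 99.2 CPM in the controls. It was the 1 member whose knockdown libraries both lay above both controls, with a log2 fold change of 0.12 (SE 0.107, edgeR adjusted p = 0.429).

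The desaturases, elongases and the acyl-CoA synthetase of the list, 6 genes, had no call and log2 fold changes between -0.13 and 0.08. SCD, which puts the first double bond into saturated acyl chains, had 410 and 396 CPM in the knockdown libraries and 496 and 389 CPM in the controls, with 1 control on either side of the knockdown libraries (log2 fold change -0.13, edgeR adjusted p = 0.557). The neighbouring desaturase genes FADS1 and FADS2, which act on polyunsaturated chains, had log2 fold changes of 0.04 and -0.13 (edgeR adjusted p = 0.863 and 0.486). Their exons overlap in part on opposite strands, by 4.79% of the bases of FADS1. The elongase genes ELOVL5 and ELOVL6 were at -0.02 and 0.08, and ACSL3, which activates fatty acids at lipid droplets, was at 0.06.

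Per kilobase, SCD, FASN and ACLY were at 76.8, 63.9 and 69.6 CPM per kb in the knockdown and at 84.4, 77.6 and 67.2 CPM per kb in the controls. In the sterol branch FDPS had the highest level on this scale, with 67.5 CPM per kb in the knockdown and 79.9 in the controls. Counts of these 4 genes were between 52.2% and 61.3% of the assumed ceiling. No source used here states such a ceiling, and the highest gene tested was at 296% of it. With counts corrected on that assumption their log2 fold changes were -0.20 for SCD, -0.39 for FASN, 0.08 for ACLY and -0.36 for FDPS, and none was called.

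Set side by side, the sterol branch had a log2 fold change below 0 in 20 of 21 genes and a median of -0.25. The fatty acid branch had 6 of 12 below 0 and a median of 0.01, while over all genes tested 48.6% were below 0 and the median was 0.01. Without SREBF2 the sterol median was -0.25, and without SREBF1 the fatty acid median was 0.04. In each branch the factor gene had the largest fall of its members, -0.92 and -0.94. Within the sterol branch the medians were -0.25 for the steps to farnesyl diphosphate, -0.26 for those to lanosterol and -0.22 for those to cholesterol. Members share libraries, and the difference between the branches was not tested.

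**Figure D4:**
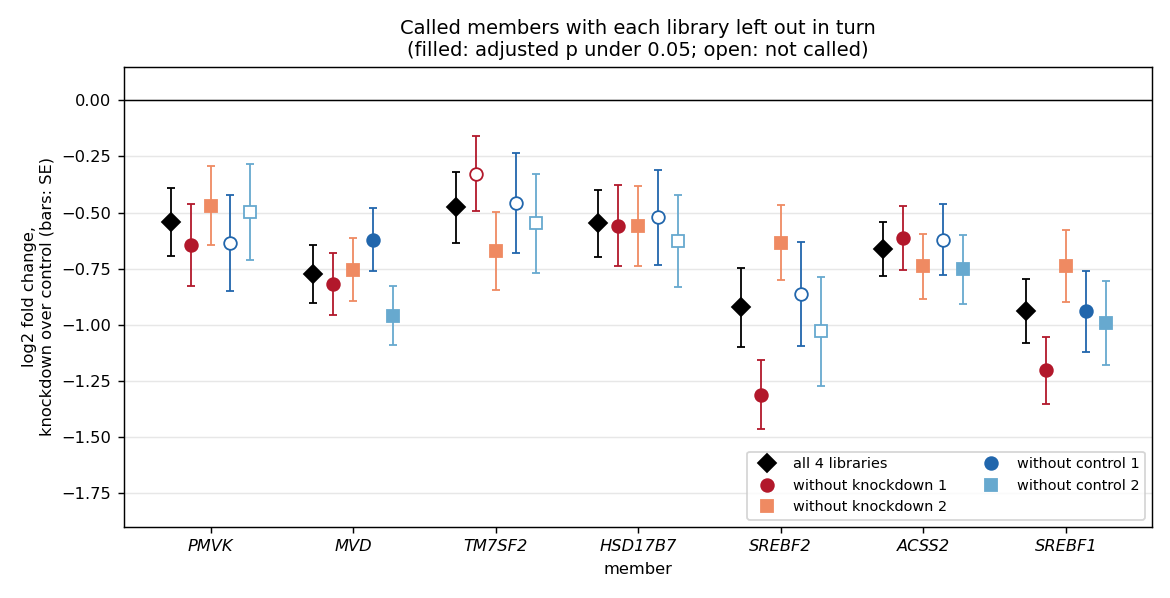
Log2 fold change of the 7 called members (vertical axis, bars show SE), with all 4 libraries and with each library left out in turn. Filled symbols were called at an adjusted p under 0.05 and open symbols were not; MVD and SREBF1 are filled throughout, and all values lie below 0.

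Of 67 further genes of the pathway in 5 lists, 60 were tested, 9 fell and 6 rose, 15% and 10%, beside 13.1% and 12.5% of all genes. Among the genes that handle SREBP, the escort gene SCAP had 148 and 139 CPM in the knockdown, against 146 and 148 CPM in the controls, and did not pass the test (log2 fold change -0.03, edgeR adjusted p = 0.867). The protease genes MBTPS1 and MBTPS2 were at -0.24 and 0.25 (edgeR adjusted p = 0.171 and 0.152), and the retention gene INSIG2 at -0.17 (edgeR adjusted p = 0.495).

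In that list 3 of 11 genes rose (27.3%) and 2 fell (18.2%), beside 12.5% and 13.1% of all genes tested. FBXW7, a ubiquitin ligase subunit that marks nuclear SREBP for degradation, had 100.1 and 106 CPM in the knockdown libraries and 56.9 and 61.7 CPM in the controls (log2 fold change 0.80, SE 0.113, edgeR adjusted p = 0.000515). Both knockdown libraries were well above both controls. The 2 liver X receptor genes, whose products raise SREBF1 transcription when oxysterols bind, moved apart. NR1H2 rose with 49.8 and 55.5 CPM in the knockdown, against 34.7 and 37.8 CPM in the controls, and NR1H3 fell with 17.2 and 17.7 CPM, against 27.1 and 28.8 CPM. SPRING1, needed for SREBP processing, rose by 0.33 on the log2 scale, and LPIN1, a phosphatidate phosphatase that restrains nuclear SREBP, fell by 0.70. The calls of NR1H2, NR1H3, SPRING1 and LPIN1 were lost without control replicate 1 or 2, and that of SPRING1 also without knockdown replicate 2 (edgeR adjusted p from 0.0529 to 0.245).

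Of 10 tested further sterol and isoprenoid genes, PDSS1, which makes the side chain of ubiquinone, rose by 0.42 on the log2 scale and none fell. That is 10% higher and 0% lower, beside 12.5% and 13.1% of all genes tested. Of 10 genes of sterol uptake, transport and storage, MYLIP, a ligase that degrades lipoprotein receptors, rose, with 37.1 and 57.2 CPM in the knockdown and 24.1 and 25.7 CPM in the controls (log2 fold change 0.92, SE 0.189, edgeR adjusted p = 0.00435). In the same list 2 genes fell, so that 10% rose and 20% fell, beside 12.5% and 13.1% of all genes tested. LRP8, a lipoprotein receptor gene, fell by 0.56 and OSBP, an oxysterol-binding protein gene, by 0.36 on the log2 scale. LRP8 was at -0.26 without knockdown replicate 2 (edgeR adjusted p = 0.185), and calls of all 4 genes were lost without control replicate 1 or 2. OSBP also lost its call without knockdown replicate 2 and PDSS1 without knockdown replicate 1 (edgeR adjusted p = 0.0723 and 0.0992).

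Of 16 tested further fatty acid genes, 1 fell (6.25%) and 0 rose, beside 13.1% and 12.5% of all genes tested. TECR, the reductase of the last step of long chain elongation, had 44.1 and 40.8 CPM in the knockdown libraries and 90.2 and 77.6 CPM in the controls (log2 fold change -0.98, SE 0.126, edgeR adjusted p = 0.000285). The groups lay far apart. ELOVL2, ELOVL4, HACD4 and ACSL6, at 0 to 9 counts a library, were not tested, nor were IDI2, ME3 and THRSP.

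Genes that supply citrate, NADPH and triglyceride gave 4 falls and 1 rise among 13 tested (30.8% and 7.69%), beside 13.1% and 12.5% of all genes. SLC25A1, the mitochondrial citrate carrier that feeds ACLY, had 46.8 and 44.1 CPM in the knockdown libraries and 89.1 and 75.2 CPM in the controls (log2 fold change -0.85, SE 0.127, edgeR adjusted p = 0.000668). DGAT2, which completes triglycerides, had 9.92 and 9.14 CPM in the knockdown, against 19.6 and 18.8 CPM in the controls, and fell by 1.01 on the log2 scale. IDH1, a cytosolic source of NADPH, fell by 0.41, and MLXIPL, which encodes the carbohydrate-responsive factor ChREBP, by 0.50. MID1IP1, an activator of acetyl-CoA carboxylase, rose by 0.69, with 90.3 and 114 CPM in the knockdown and 63.1 and 63.2 CPM in the controls. TECR, SLC25A1 and FBXW7 kept their calls with each library left out. Calls of the other 4 genes of the supply list were lost with either control left out (edgeR adjusted p from 0.0665 to 0.153).

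**Figure D5:**
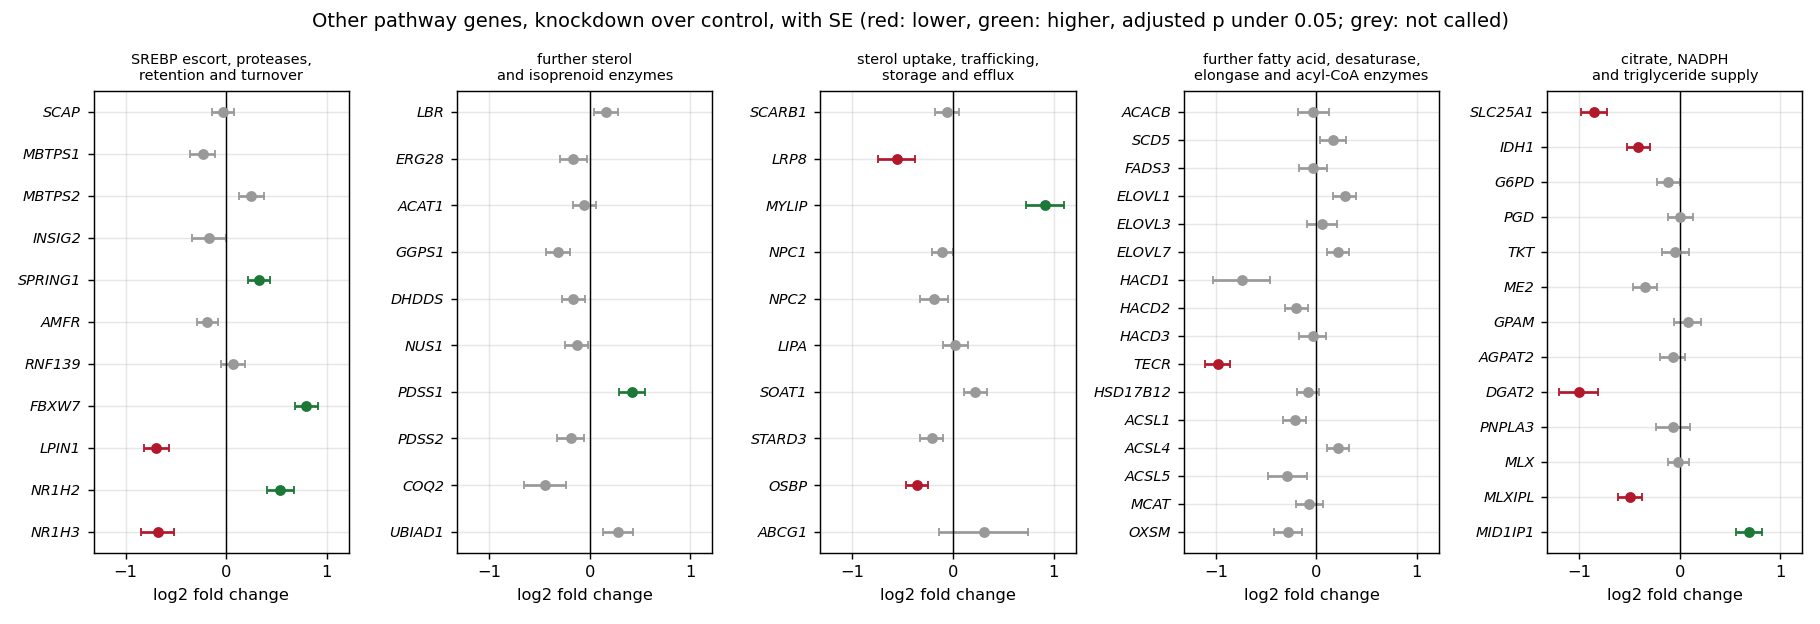
Log2 fold change, knockdown over control, with SE (horizontal axis) of the 60 tested further genes of the pathway in 5 lists. Red points were called as lower (9 genes), green points as higher (6 genes) and grey points were not called.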

How the data were processed

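RNA sequencing of 2 RALY knockdown and 2 control libraries of HCT116 cells was deposited as 1 table of gene counts per library. The deposited counts are whole numbers of reads per Ensembl gene in the layout of featureCounts, as read per the file headers. HISAT2 2.0.4, SAMtools, featureCounts, Subread and GRCh38 are named in the submitters' processing notes. No source used here states how strand, multi-mapping reads or reads sharing a position were handled. Names and canonical transcript lengths came from GENCODE release 44, which held 58472 of the 58884 genes, and coordinates are those of the tables. Genes were tested with edgeR 4.0.16 (R 4.3.3): filterByExpr, TMM factors, robust quasi-likelihood F test, Benjamini-Hochberg adjustment over all 19686 genes tested, called under 0.05. Each gene's SE is its log2 fold change divided by the square root of F. The groups came from the sample titles. The fit was tested on simulated data.

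Members and lists were chosen with earlier results of these data known. The rule named RALY, both factor genes, called members, up to 6 members a branch with the smallest p and up to 6 with the highest level per kilobase, up to 4 called further genes a list and direction, genes overlapping members, and small RNA genes in introns of the factor genes. Other members, SCAP, MBTPS1, MBTPS2, INSIG2, LBR, the untested genes and HSD17B7P2 were named outside it, after their values were seen. Alternatives were DESeq2 size factors, library totals, DESeq2 1.42.0 (Wald test), no filter or 1 CPM in 2 libraries, a replicate term, each library left out, and counts corrected for an assumed ceiling of 2 counts a transcript base. The 2 libraries of a group differed beyond counting noise, with a chi-square per degree of freedom of 9.32 in the knockdown and 5.1 in the controls. The floor of 3 counts is 0.182 and 0.203 CPM in the knockdown and 0.225 and 0.178 CPM in the controls, and covers counting error only. A further gene of the lists is not reported here.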

Additional observations from a re-analysis of the deposited data

How the results depend on the processing

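Under 7 alternatives that kept all 4 libraries, the 7 member calls held, except that of TM7SF2 with library totals, and RALY fell in every fit. Sterol members called as lower numbered 5, but 4 with library totals. They numbered 9 with no filter on low counts and 9 with the replicate block, where ACAT2, FDFT1, INSIG1 and NSDHL were added. Samples shared only a number in their titles: over genes, same-numbered deviations correlated at r = 0.219, and the replicate block called 3536 genes (18%) as lower and 3518 as higher. With libraries left out in turn, sterol members called as lower ranged from 1 to 9, fatty acid members from 1 to 3, further genes from 2 to 11 as lower and 1 to 7 as higher, and all genes from 508 to 3351 as lower and 340 to 2908 as higher; the low ends came without a control. HMGCS1, near 0 at 0.01, was at -0.011 with library totals, -0.017 with the DESeq2 Wald test and -0.017 with no filter. Members without a call that changed sign with a library left out ranged from -0.27 to 0.30 (HMGCS1), -0.33 to 0.0053 (SQLE), -0.23 to 0.11 (MSMO1), -0.10 to 0.16 (ACLY), -0.24 to 0.26 (ACACA), -0.31 to 0.015 (SCD), -0.11 to 0.14 (FADS1), -0.11 to 0.031 (ELOVL5), -0.062 to 0.18 (ELOVL6) and -0.049 to 0.13 (ACSL3). The further gene LRP8 was not called with DESeq2 size factors, the DESeq2 Wald test or corrected counts, SPRING1 not with the Wald test or no filter, and PDSS1 not with the Wald test. The cause was not tested. Depth limits SQLE.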
